A study of Mus musculus with 6 samples.

Results

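The 9 genes described here encode enzymes that modify or cut the Notch receptor: the Fringe glycosyltransferases Lfng, Mfng and Rfng, the protein O-fucosyltransferase Pofut1, the cell surface proteases Adam10 and Adam17, and the γ-secretase subunits Psen2, Ncstn and Aph1a. They were found by gene symbol, 1 row for each, among the 54532 named rows of the expression tables, and all 9 had a mean of at least 1 FPKM over the 6 mice (FPKM, a read level per length of gene and per size of library). The tables hold RNA-seq of the anterior prostate (AP) of 3 OEx and 3 Ctrl male mice at 20 weeks of age, from tissue cleaned of prostatic secretion. OEx mice carried Pbsn-Cre and 1 Rosa26 N1ICD allele, so that the Notch1 intracellular domain (N1ICD) and a co-inserted Egfp were expressed in prostatic epithelial cells in which the probasin promoter drives Cre. Ctrl mice carried the same Rosa26 N1ICD allele without Cre, and the labels call them wild type. The comparison asks how the genes that act on the Notch receptor were expressed where a Notch1 fragment that no longer needs these enzymes was supplied.

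A Notch receptor is glycosylated on the EGF repeats of its extracellular part and then cut several times. In the endoplasmic reticulum and Golgi, POFUT1 adds O-fucose to EGF repeats, Fringe enzymes extend that fucose with N-acetylglucosamine and thereby change which ligands activate the receptor, and furin-type convertases cut the precursor. After ligand binding, ADAM10, or ADAM17 in some settings, sheds the extracellular part, and γ-secretase, a complex of a presenilin such as PSEN2, nicastrin (NCSTN), APH1 and PEN2 (PSENEN), releases the intracellular domain, which binds the DNA-binding protein RBPJ in the nucleus. N1ICD is the product of that last cut.

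Because N1ICD acts through RBPJ, the RefSeq promoter windows (250 bases before to 50 after a start, GRCm38.p6) were searched on both strands for TGGGAA, the core letters of the RBPJ motif, which reads TTCCCA on the other strand. There were 9 windows for 8 of the 9 genes, with 2 for Psen2 and none for Mfng. A match was found in 3 of the 9 windows, of Lfng, Psen2 and Aph1a, against 25.56% of all 32851 promoter windows. The other Psen2 window held no match. The longer GTGGGAA was found in the same 3 windows, against 6.383% of all windows. In the deposited values these 3 genes were lower in every OEx mouse than in every Ctrl mouse, as was Rfng, whose window held no match. Scaled to the same FPKM total in each mouse, the log2 fold changes, OEx over Ctrl, were 0.0089 (Lfng), 0.27 (Psen2), 0.26 (Aph1a) and 0.37 (Rfng). A link of matches to expression was not tested. The matches are shown in capitals on the strand of the gene.
Lfng, chr5:140607186-140607258, + strand: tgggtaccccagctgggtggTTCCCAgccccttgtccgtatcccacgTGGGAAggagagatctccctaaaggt
Psen2, chr1:180246022-180246051, - strand: agcacaggagacTTCCCAcagatgtttatc
Aph1a, chr3:95893906-95893935, + strand: gccttccgggggTGGGAAttagatgggagg
Lfng held 2 matches, whose first bases lay at -135 and -108 from the start, and 3.79% of all windows held 2 or more. The Psen2 match began at -89 and the Aph1a match at -3. These positions count from RefSeq starts, which differ for all 3 genes from the starts of the gene intervals given below. A match describes letters in a window and is not a measured binding site.

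The libraries held between 14772005 and 18655462 recovered reads on annotated genes. Notch1, whose row cannot separate the transgene from the endogenous gene, stood at 41.9 to 78.9 FPKM in OEx mice and 3.34 to 5.55 FPKM in Ctrl mice, and all 4 tested of 6 listed Notch target genes were called higher in OEx mice (Heyl, Nrarp, Hes1 and Hey1), although Hey1 was not called without OEx replicate 3. Of the 4 Notch receptors 3 were called higher, and of the 2 tested ligands Jag1 was called higher and Jag2 lower. By the same criteria, given below, 12.8% of all genes tested were called higher and 15.5% lower. The 5 prostate markers summed to 2350 to 5473 FPKM in OEx mice and 23416 to 23798 FPKM in Ctrl mice. The 4 basal epithelial markers summed to 6.79 to 15.9 FPKM in OEx mice and 212 to 249 FPKM in Ctrl mice. Replicate 3 of each group stood apart from replicates 1 and 2. The latter correlated across genes at a Pearson r of 0.991 on log2 values in both groups. Measured against counting noise, their difference had a mean chi-square per gene of 3.69 (OEx) and 2.90 (Ctrl), more than counting noise alone. Pairs with replicate 3 gave 56.5 and 59.9 (OEx) and 97.1 and 98.0 (Ctrl). Replicates 1 and 2 were thus far closer to each other than to replicate 3, and their independence was not tested. The 5 luminal markers summed to 1186 to 1526 FPKM in OEx mice and 2178 to 2451 FPKM in Ctrl mice, and the 5 endothelial markers to 6.52 to 7.66 FPKM and 17.5 to 23.1 FPKM. In Ctrl mice the 8 seminal vesicle markers summed to 16128 FPKM in replicate 3 and to at most 4.36 FPKM in the others.

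None of the 9 genes met both criteria of the study (FDR under 0.05 and a fold change above 2) in limma on log2(FPKM + 1). Of all 12553 genes tested, 12.8% were called higher and 15.5% lower by the same criteria, or 1604 and 1941 genes and 28.2% in all. At an FDR under 0.05 and any fold, 2 of the 9 were higher (Adam10 and Adam17), 3 were lower (Rfng, Psen2 and Aph1a) and 4 did not pass, against 30.9% higher, 36.5% lower and 67.4% in either direction over all genes. The unadjusted p was under 0.05 for 6 of the 9, and limma-voom on the recovered reads also called none. The groups did not overlap for 6 of the 9, against 72.5% of all genes, with OEx mice on the higher side for 2 (33.6% of all genes) and on the lower side for 4 (38.9%). The median log2 fold change was -0.04 for the 9 genes and -0.07 for all genes tested. With 9 genes, nothing particular to them is read from these shares, and what follows describes each gene.

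The directions of the smaller differences depend on how mice are scaled to each other. Per recovered read, the divisor of the deposited FPKM values was 1.22 to 1.34 in OEx mice and 0.726 to 0.815, less than the reads themselves, in Ctrl mice. The most abundant gene held 14.2% to 22.0% of the reads in the latter and at most 1.12% in the former. With the same FPKM total in each mouse, the median over all genes moved from -0.07 to 0.66 and 4367 genes were called higher and 446 lower. Leaving the 20 most abundant genes out of that total gave a median of 0.46, with 3400 called higher and 656 lower. Upper-quartile scaling gave a median of 0.17, with 2311 higher and 1233 lower, and quantile normalization gave -0.03, with 1512 and 1430. Of the 9 genes, 3 were called higher with the same FPKM total, 3 without the 20 most abundant genes, 1 after upper-quartile scaling and 2 after quantile normalization, and they were Adam10 in each case, Adam17 with both FPKM totals, and Ncstn with both FPKM totals and after quantile normalization. The fold change of each of the 9 genes is therefore given on the deposited scale and also relative to the median of all genes over these 5 scalings.

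**Figure D1:**
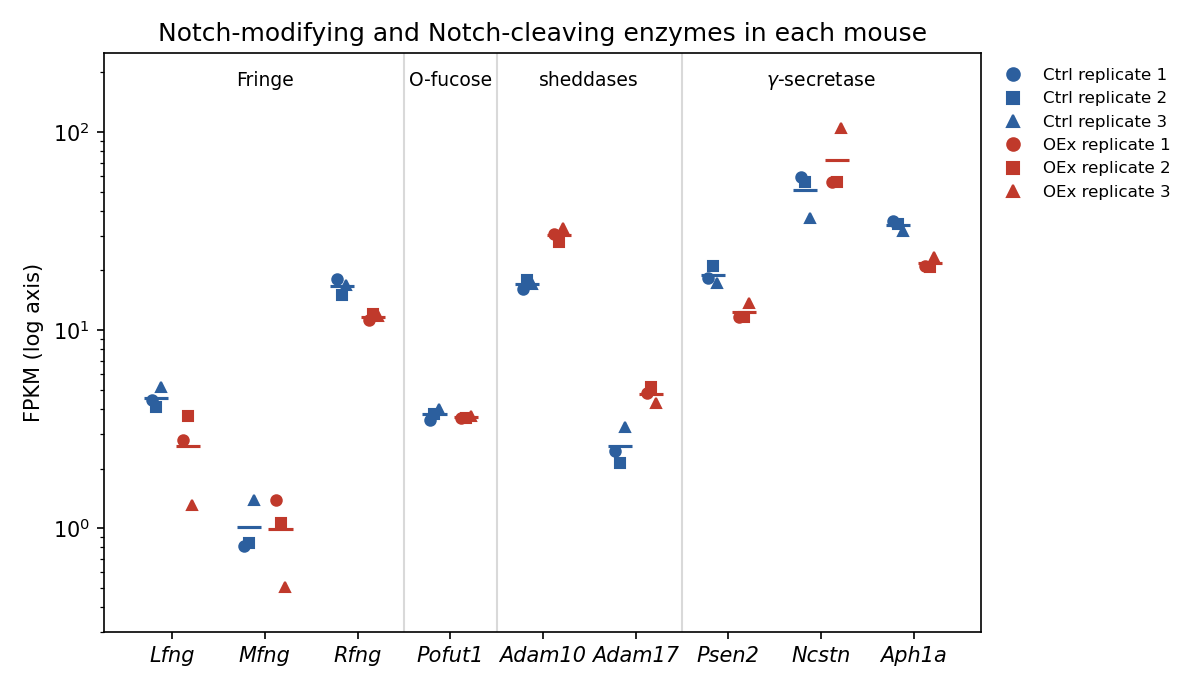
FPKM (log axis) of the 9 genes in each of 3 Ctrl mice (blue) and 3 OEx mice (red), with symbols for replicates 1 to 3 and horizontal lines for group means. The groups do not overlap for Lfng, Rfng, Adam10, Adam17, Psen2 and Aph1a and overlap for Mfng, Pofut1 and Ncstn.

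Adam10 and Adam17, the sheddases, were the 2 genes higher in OEx mice at an FDR under 0.05. Adam10 passed that FDR under all 19 alternatives run and Adam17 under the 18 in which it was tested, since a filter of mean 5 FPKM left it out. Adam10, the main protease of ligand-induced Notch shedding, lies on chromosome 9 (chr9:70678997-70780229, + strand, GRCm38) and had 30.5, 27.8 and 32.6 FPKM in OEx mice and 16.1, 17.8 and 17.1 FPKM in Ctrl mice. The lowest OEx mouse stood well above the highest Ctrl mouse. The OEx mean of 30.3 ± 2.38 FPKM was 1.78 times the Ctrl mean of 17.0 ± 0.890 FPKM (SD, n = 3 each). The log2 fold change was 0.80 (SE 0.0905, 95% interval 0.58 to 1.01, limma FDR 3.47e-04), and it lay 0.87 to 1.26 above the median of all genes over the 5 scalings. It passed a fold of 2 under the 4 scalings other than the deposited one. In RNA of whole AP tissue, more cells of a type and more RNA per cell cannot be told apart, here and for each gene that follows.

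Adam17, which also sheds TNF and EGF receptor ligands, lies on chromosome 12 (chr12:21323509-21373632, - strand). It had 4.81, 5.15 and 4.28 FPKM in OEx mice and 2.46, 2.14 and 3.23 FPKM in Ctrl mice, so every OEx mouse was above every Ctrl mouse at a level several times lower than that of Adam10. On the log2 scale OEx mice were higher by 0.68 (SE 0.137, 95% interval 0.35 to 1.01, limma FDR 0.00437), or 0.53 to 0.76 above the median of all genes. Adam17 shares 311 exon bases with Iah1 on the other strand, and the sources used here do not say whether reads were counted by strand. Iah1 had 5.54 to 7.10 FPKM in OEx mice and 7.20 to 9.10 FPKM in Ctrl mice, the other order.

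The balance of both sheddases did not differ detectably. Within a mouse, Adam10 stood at 6.34, 5.40 and 7.60 times the FPKM of Adam17 in OEx mice and at 6.53, 8.34 and 5.30 times in Ctrl mice. The mean log2 ratio was 2.67 ± 0.247 (SD, n = 3) in OEx mice and 2.72 ± 0.328 (SD, n = 3) in Ctrl mice, with an exact permutation p of 0.8. A ratio within a mouse is free of any scaling between mice. With 3 against 3 mice, the two-sided exact permutation test has 0.1 as its smallest p, so none of the 6 ratios tested could pass 0.05.

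Of the γ-secretase subunits, Aph1a and Psen2 were lower in OEx mice on the deposited scale, turning positive with the same FPKM total, and Ncstn did not pass the test. Aph1a, the scaffold subunit (chr3:95893969-95898288, + strand), had 21.0, 20.9 and 23.5 FPKM in OEx mice and 35.4, 34.2 and 31.5 FPKM in Ctrl mice. No OEx mouse reached the lowest Ctrl mouse. The log2 fold change was -0.61 (SE 0.0882, 95% interval -0.82 to -0.40, limma FDR 9.91e-04), and it turned to 0.26 with the same FPKM total and to 0.02 (limma FDR 0.848) when the 20 most abundant genes were left out of that total. After quantile normalization Aph1a stood at -0.14 and did not pass (limma FDR 0.128). Relative to the median of all genes it stayed below, by -0.54 to -0.11. Aph1a shares 445 exon bases with Car14 on the other strand, which had at most 0.932 FPKM in any mouse.

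Psen2, a presenilin and thus a form of the catalytic subunit (chr1:180227004-180263438, - strand), had 11.7, 11.7 and 13.6 FPKM in OEx mice and 18.4, 21.1 and 17.2 FPKM in Ctrl mice, again with no overlap. Its log2 fold change was -0.58 (SE 0.108, 95% interval -0.84 to -0.32, limma FDR 0.00319) and turned to 0.27 and 0.04 under the same scalings as that of Aph1a. It lay below the median of all genes under each scaling, by -0.50 to -0.28.

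Ncstn, the large glycoprotein subunit (chr1:172066013-172082795, - strand), was the most abundant of the 9 genes in both groups, at 55.6, 55.9 and 104.7 FPKM in OEx mice and 59.4, 56.0 and 36.7 FPKM in Ctrl mice. Replicates 1 and 2 of both groups lay within 55.6 to 59.4 FPKM, and replicate 3 was the highest OEx and the lowest Ctrl value. Its log2 fold change of 0.46 (SE 0.295, 95% interval -0.24 to 1.17) did not pass the test (limma FDR 0.203). It was 0.16 without OEx replicate 3, 0.25 without Ctrl replicate 3 and -0.05 without both, an alternative chosen after seeing the data. Under the 4 other scalings the limma FDR of Ncstn was between 0.00635 and 0.0459, with log2 fold changes up to 1.35. Relative to the median of all genes Ncstn lay above by 0.54 to 1.24. The luminal marker Epcam, chosen after its values were seen, was also highest in OEx replicate 3 and lowest in Ctrl replicate 3, at 313, 310 and 491 FPKM in OEx mice and 297, 295 and 214 FPKM in Ctrl mice. All 5 luminal markers were highest among OEx mice in replicate 3, but Krt8, unlike the other 4, was not lowest in Ctrl replicate 3. Between groups the luminal list was mixed, since Krt8, Krt18 and Cd24a were lower in OEx mice at an FDR under 0.05 (log2 fold changes of -0.43, -1.49 and -1.83) and Cdh1 was higher (0.63). Copa, which shares 195 exon bases with Ncstn on the other strand, had 37.7, 37.1 and 51.8 FPKM in OEx mice and 60.9, 60.7 and 41.0 FPKM in Ctrl mice. The part of epithelial content or of Copa reads in the Ncstn values was not tested.

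The ratio of Ncstn to Aph1a, free of scaling, was 2.65, 2.68 and 4.46 in OEx mice and 1.68, 1.64 and 1.17 in Ctrl mice. Every OEx mouse was above every Ctrl mouse, with a difference of 1.10 in the mean log2 ratio (1.66 ± 0.430 against 0.559 ± 0.294, SD, n = 3 each). The exact permutation p was 0.1, the smallest these 3 against 3 mice allow, and 0.2 after Benjamini-Hochberg adjustment over the 6 ratios.

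Further subunits were listed with the complex. Psenen (PEN2), needed for presenilin to mature, had 34.4, 34.3 and 35.0 FPKM in OEx mice and 104.3, 98.1 and 102.8 FPKM in Ctrl mice. It was the 1 gene of this list of 3 that passed both criteria, at -1.53 on the log2 scale (SE 0.0718, limma FDR 2.64e-05). Psenen was not called with the same FPKM total, where it stood at -0.64 and 1.30 below the median of all genes, nor with the 20 most abundant genes left out, nor after quantile normalization. It shares 111 and 119 exon bases with 2 protein-coding genes on the other strand. Aph1b did not pass an FDR of 0.05, and Aph1c was below the filter.

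**Figure D2:**
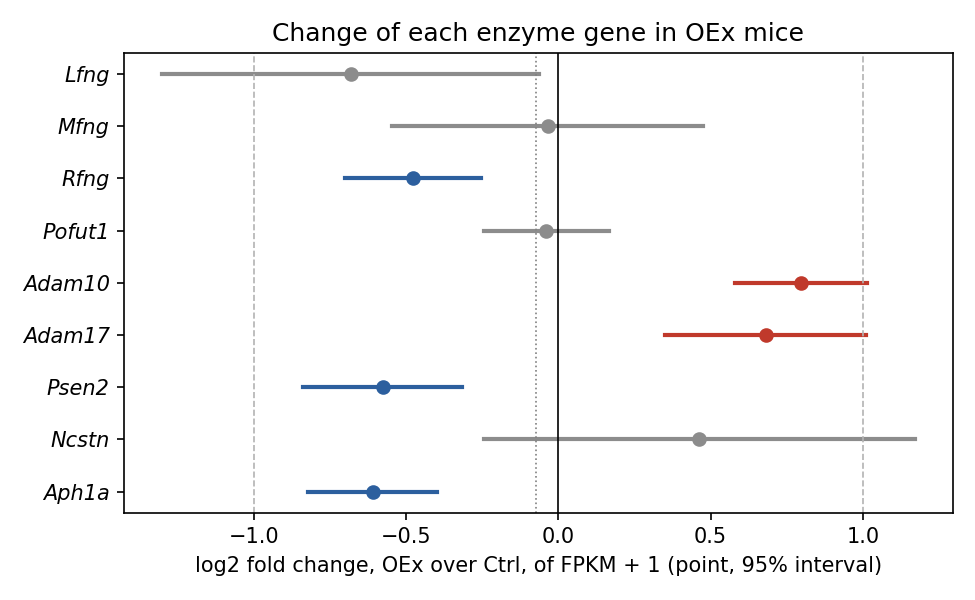
Log2 fold change of FPKM + 1, OEx over Ctrl, for each gene (points) with its 95% interval from limma (bars), on the deposited scale. Red marks higher and blue lower at an FDR under 0.05, gray marks the rest, dashed lines mark a fold of 2 and the dotted line the median of all genes. No point lies beyond a fold of 2, and the 3 blue points (Rfng, Psen2, Aph1a) turn positive with the same FPKM total in each mouse.

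Among the Fringe genes, Rfng made up most of the expression in every mouse. Its share of the summed FPKM of the 3 genes was 72.8%, 71.7% and 86.6% in OEx mice and 77.5%, 75.3% and 72.2% in Ctrl mice, and Mfng had at most 9.03%. Rfng lies on chromosome 11 (chr11:120780746-120784207, - strand) and had 11.3, 12.1 and 11.7 FPKM in OEx mice and 18.1, 15.0 and 17.0 FPKM in Ctrl mice. All OEx mice lay below all Ctrl mice. Rfng had a log2 fold change of -0.48 (SE 0.0932, 95% interval -0.70 to -0.25, limma FDR 0.00381), which turned to 0.37 (limma FDR 0.0194) with the same FPKM total and to 0.14 without the 20 most abundant genes. Relative to the median of all genes Rfng lay below by -0.40 to -0.21. Upper-quartile scaling and quantile normalization left it short of the threshold, at limma FDRs of 0.0930 and 0.0542.

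Lfng, the Fringe enzyme best known from somite and T cell development, lies on chromosome 5 (chr5:140607320-140615545, + strand). It had 2.80, 3.68 and 1.30 FPKM in OEx mice, from 140, 211 and 59 reads, and 4.44, 4.07 and 5.15 FPKM in Ctrl mice, from 139, 132 and 196 reads. The groups did not overlap, and OEx replicate 3 was the lowest. The log2 fold change of -0.68 (SE 0.259, 95% interval -1.30 to -0.06) was the largest decrease among the 9 genes on the deposited scale and just missed the threshold (limma FDR 0.0525), and with the same FPKM total it was 0.01. Without OEx replicate 3 it was -0.39 (limma FDR 0.0536), and Aph1a (-0.66) and Psen2 (-0.65) then had larger decreases. The FDR passed without OEx replicate 2 (limma FDR 0.0206) and after quantile normalization (0.0250). Relative to the median of all genes Lfng lay below by -0.80 to -0.61.

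Mfng lies on chromosome 15 (chr15:78755882-78773475, - strand) and was the least expressed of the 9 genes, with 1.39, 1.06 and 0.507 FPKM in OEx mice and 0.817, 0.843 and 1.39 FPKM in Ctrl mice. The groups overlapped fully, on 26 to 79 reads in a mouse, and the log2 fold change of -0.03 had a 95% interval of -0.55 to 0.48. At this depth a change within that interval is not excluded. Relative to the median of all genes Mfng stayed between -0.28 and 0.04. As with Lfng, OEx replicate 3 had the lowest value. That mouse also had the lowest sum of 9 immune markers, 12.6 FPKM. The sum was 176 and 193 FPKM in the other OEx mice and 27.0 to 65.7 FPKM in Ctrl mice. Most of it was Lyz2 in every mouse, at 171, 155 and 7.79 FPKM in OEx mice and 22.0, 23.8 and 54.7 FPKM in Ctrl mice. The rest of the list was mixed. Ptprc, which was below the filter, was higher in OEx replicate 3 (0.427 FPKM) than in every Ctrl mouse (0.0742, 0.114 and 0.201 FPKM). In OEx replicate 3 Itgam, Cd3e and Adgre1 lay within the range of Ctrl mice, and Cd68 and Cd3d lay below it. The B cell markers Cd79a and Ms4a1 were at 0 in OEx replicate 3, but had at most 16 reads in any mouse. Cd79a was also at 0 in Ctrl replicates 1 and 2. None of the 3 tested immune markers passed an FDR of 0.05, although all 3 were called higher without OEx replicate 3. The 7 fibroblast and smooth muscle markers summed to 307 FPKM in OEx replicate 3 and to 549 and 555 FPKM in the other OEx mice. In Ctrl mice they summed to 822 to 1698 FPKM. None was at 0, and 3 of 7 were called lower, against 15.5% of all genes. Of these calls that of Des held in 7 of 19 alternatives, and no marker of the list was called with the same FPKM total. Of the same list Col1a1, at 75.4, 83.7 and 6.04 FPKM in OEx mice and 11.4, 11.5 and 18.9 FPKM in Ctrl mice, and Col3a1 went the other way in OEx replicates 1 and 2. Without OEx replicate 3 both were called higher, at log2 fold changes of 2.47 and 2.97. The part of immune or stromal cells in the Lfng and Mfng values was not tested.

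The proportions within the Fringe family were compared within each mouse. Lfng stood at 2.01, 3.47 and 2.57 times Mfng in OEx mice and at 5.43, 4.83 and 3.70 times in Ctrl mice. Each OEx mouse lay below each Ctrl mouse, with a difference of -0.81 in the mean log2 ratio (1.39 ± 0.394 against 2.20 ± 0.283, SD, n = 3 each, exact permutation p = 0.1, adjusted 0.2). The ratio of Lfng to Rfng overlapped between groups, at 0.111 to 0.306 in OEx mice and 0.245 to 0.303 in Ctrl mice (exact permutation p = 0.7), as did that of Mfng to Rfng (exact permutation p = 0.5).

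**Figure D3:**
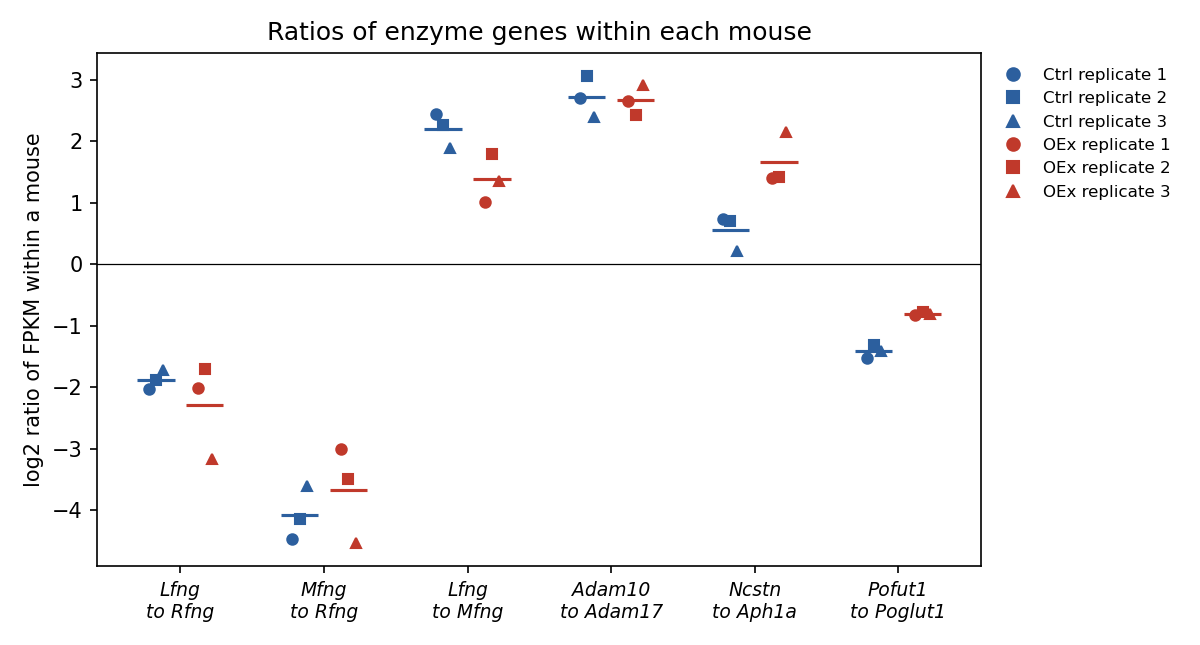
Log2 ratio of the FPKM of 2 genes within each mouse for 6 pairs, in Ctrl (blue) and OEx (red) mice, with symbols for replicates and horizontal lines for group means. The groups separate for Lfng to Mfng, Ncstn to Aph1a and Pofut1 to Poglut1 and overlap for the other 3 pairs, among them Adam10 to Adam17, which lies at nearly the same level in both groups.

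Pofut1, the enzyme that adds the O-fucose on which Fringe acts, lay between 3.53 and 3.98 FPKM in all 6 mice (chr2:153241533-153270247, + strand). It had 3.62, 3.60 and 3.68 FPKM in OEx mice and 3.53, 3.78 and 3.98 FPKM in Ctrl mice, with overlapping groups. Pofut1 had a log2 fold change of -0.04 (SE 0.0860, 95% interval -0.25 to 0.17, limma FDR 0.703). It stayed within -0.18 and 0.04 of the median of all genes, while the fold change itself was 0.67 (limma FDR 4.61e-04) with the same FPKM total. Poglut1, which adds O-glucose to EGF repeats, had 6.39, 6.18 and 6.46 FPKM in OEx mice and 10.1, 9.44 and 10.6 FPKM in Ctrl mice, and its log2 fold change of -0.59 (limma FDR 7.91e-04) turned to 0.21 with the same FPKM total. The ratio of Pofut1 to Poglut1 was 0.567, 0.582 and 0.570 in OEx mice and 0.349, 0.401 and 0.378 in Ctrl mice. The groups separated, with a difference of 0.61 in the mean log2 ratio (exact permutation p = 0.1, adjusted 0.2).

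The level of each gene relative to the others was also ordered within each group, which FPKM allows because it is per length of gene. In OEx mice the order of the mean FPKM was Ncstn, Adam10, Aph1a, Psen2, Rfng, Adam17, Pofut1, Lfng and Mfng, and in Ctrl mice it was Ncstn, Aph1a, Psen2, Adam10, Rfng, Lfng, Pofut1, Adam17 and Mfng. Adam10 thus ranked above Aph1a and Psen2 in every OEx mouse, whereas in Ctrl mice it ranked below Aph1a and overlapped with Psen2 and Rfng. Adam17 ranked above Pofut1 and Lfng in OEx mice and below both in Ctrl mice, without overlap. In OEx mice Psen2 overlapped with Rfng, Pofut1 with Lfng, and Lfng with Mfng. Ncstn lay above 96.5% of the tested genes in OEx mice and 90.7% in Ctrl mice, and Mfng above 4.43% and 9.58%.

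**Figure D4:**
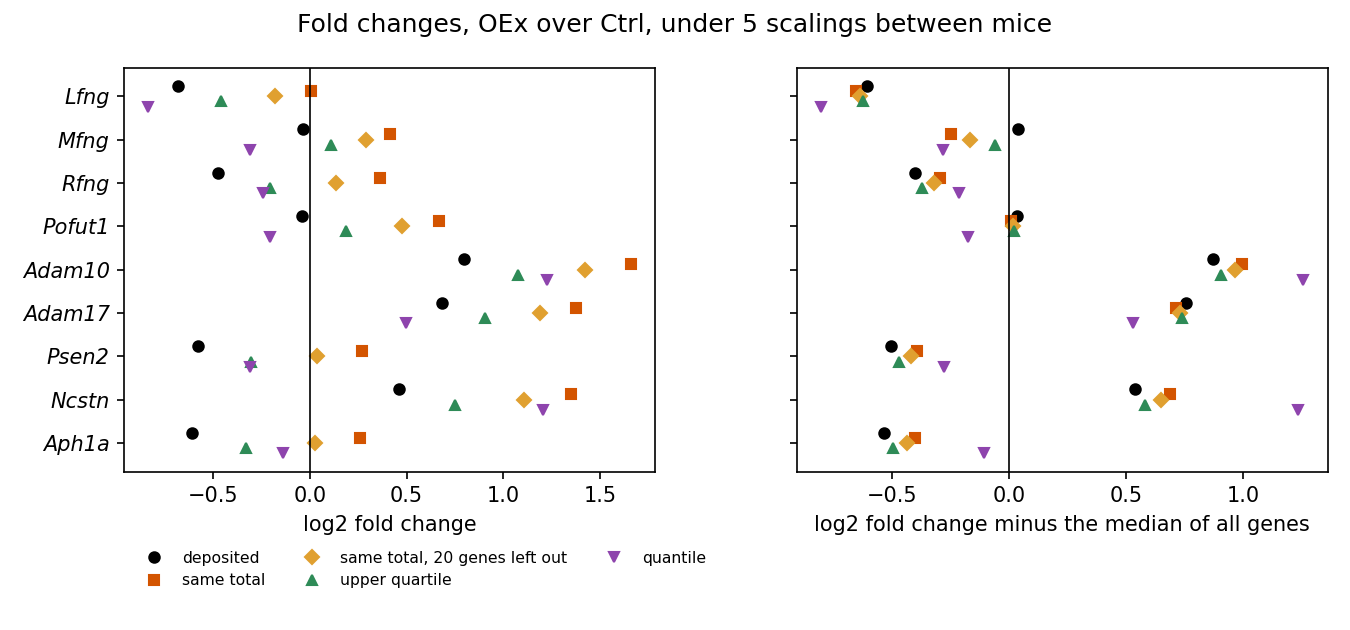
Log2 fold change of each gene, OEx over Ctrl, under 5 scalings between mice (symbols), as it stands (left) and minus the median of all genes under that scaling (right). On the left, only Adam10, Adam17 and Ncstn lie above 0 under all 5 scalings and the other 6 genes lie on both sides of 0, while on the right Lfng, Rfng, Psen2 and Aph1a lie below 0 under all 5.

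The genes around these 9 in the pathway were listed in 6 groups of 38 genes, of which 32 were tested. At an FDR under 0.05, 10 were higher and 13 lower in OEx mice, and 1 and 7 of them passed a fold of 2, with a median log2 fold change of 0.02. Over all genes tested those shares were 30.9% and 36.5% at that FDR and 12.8% and 15.5% with the fold of 2. The split depends on the scaling, since with the same FPKM total 19 of the 32 were higher and 6 lower at that FDR and 11 and 2 passed the fold of 2. Without the 20 most abundant genes in that total, 9 and 2 passed it. Of all genes 34.8% were called higher and 3.55% lower with the same FPKM total, where their median log2 fold change was 0.66. Without those 20 genes the shares were 27.1% and 5.23%. Nothing particular to these lists is read from their counts, which are given below on the deposited scale unless another is named.

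The supply of GDP-fucose, the donor that POFUT1 uses, held 3 of the 7 genes called lower, with 4 of its 6 genes lower and 1 higher at an FDR under 0.05 (36.5% and 30.9% of all genes) and a median of -1.02. With the same FPKM total, with or without the 20 most abundant genes, 1 gene of this list was called lower and 1 higher. Of all genes 3.55% were called lower and 34.8% higher with those 20 genes, and 5.23% and 27.1% without them. Tsta3, the enzyme that completes de novo GDP-fucose synthesis, had 20.9, 21.8 and 23.1 FPKM in OEx mice and 88.3, 95.3 and 96.8 FPKM in Ctrl mice. Its log2 fold change of -2.04 (limma FDR 1.90e-05) passed both criteria under each of 19 alternatives. Gmds, which catalyses the first step of that synthesis, and Slc35c2, a Golgi protein linked to fucosylation of Notch, had log2 fold changes of -1.42 and -1.55. Both lost the fold of 2, but not the direction, with the same FPKM total, with or without the 20 most abundant genes. These values stand beside a Pofut1 level that overlapped between groups.

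Other glycosyltransferases of EGF repeats went both ways, with 4 of 8 higher and 3 lower at an FDR under 0.05 (30.9% and 36.5% of all genes). Gxylt2, which adds xylose to O-glucose, was the 1 gene called, at 0.530, 0.514 and 0.944 FPKM in OEx mice and 14.8, 13.1 and 9.79 FPKM in Ctrl mice. Its log2 fold change of -3.02 (limma FDR 3.84e-05) also passed both criteria under each of 19 alternatives. Gxylt1, its paralog, was chosen after its values were seen and went the other way, with a log2 fold change of 0.98 (limma FDR 1.30e-04), just under a fold of 2. Gxylt1 was called higher in 8 of the 18 alternatives in which it was tested, among them both smaller pseudocounts, 3 of the 4 other scalings and limma-voom.

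The partners and the inhibitor of ADAM10 and ADAM17 had 3 genes higher and 3 lower of 9 tested at an FDR under 0.05, against 30.9% and 36.5% of all genes. With the same FPKM total 7 were higher and 1 lower at that FDR. Those 2 shares of all genes belong to the deposited scale and are no background for these counts. The same FPKM total shifted genes upward in general, to a median of 0.66 on the log2 scale. Under that scaling 3 were called higher and none lower, against 34.8% and 3.55% of all genes. Tspan5, a tetraspanin that accompanies ADAM10, was the 1 gene called, at 0.807, 0.704 and 0.645 FPKM in OEx mice and 2.56, 2.64 and 3.11 FPKM in Ctrl mice, which is -1.13 on the log2 scale (limma FDR 2.13e-04). It lost the fold of 2 under both FPKM totals and upper-quartile scaling and kept an FDR under 0.05 in the same direction under each of 18 alternatives. Timp3, the inhibitor of both proteases, was chosen after its values were seen and had a log2 fold change of 0.05 (95% interval -0.27 to 0.37, limma FDR 0.754).

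**Figure D5:**
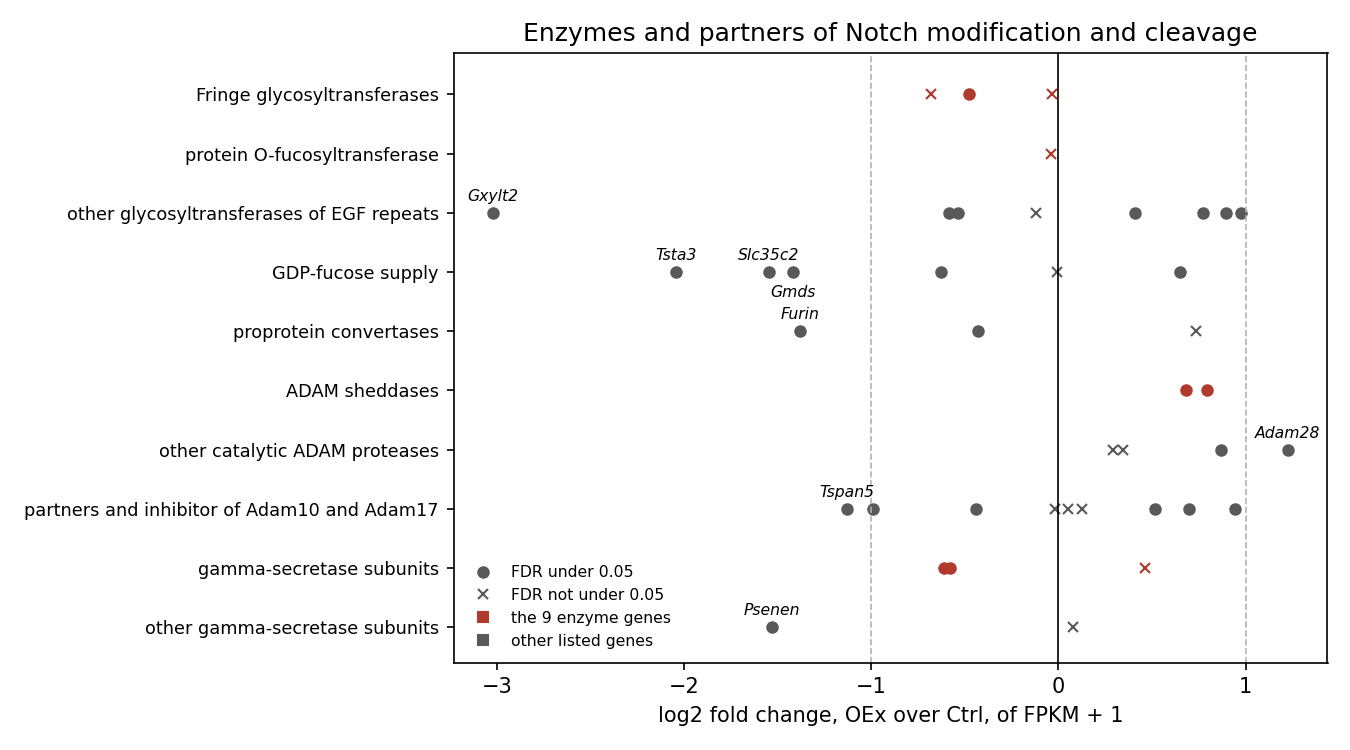
Log2 fold change of FPKM + 1, OEx over Ctrl, on the deposited scale, for the 9 genes (red) and the tested genes of 6 further lists (gray), 1 row per list. Filled circles passed an FDR of 0.05 and crosses did not, dashed lines mark a fold of 2, and genes beyond it are named: Gxylt2, Tsta3, Slc35c2, Psenen, Gmds, Furin and Tspan5 on the lower side and Adam28 on the higher side.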

How the data were processed

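RNA-seq libraries of the AP of 3 OEx and 3 Ctrl mice, grouped by the genotype label, were compared. The FPKM values used here were computed and deposited by the authors, in a separate table for each library. The methods state a TruSeq kit, an Illumina HiSeq system and an in-house pipeline, and the submitters' processing notes list HISAT2 2.0.5, featureCounts 1.5.0-p3, StringTie 1.3.3b and CASAVA. The genome build, the strand setting and the divisor behind the FPKM values are not given in the sources used here. The labels do not say whether a library held 1 animal, so p-values measure the spread between these 6 libraries. Nor do they say whether replicates 1 and 2 of a group were independent. If they were not, the SDs and p-values rest on fewer than 3 independent units per group.

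Of 55076 rows, 544 carried no gene name (0.632% to 1.21% of the FPKM of a mouse) and were left out. Rows were matched by symbol to GENCODE vM21 (GRCm38) for coordinates and exon lengths, and reads were recovered from the smallest steps between FPKM values. Between 96.9% and 97.5% of values under 1000 reads, and all 54 values of the 9 genes, were whole within 0.05 reads. Intervals and read numbers cover these libraries only, and no molecular identifiers are named.

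Log2(FPKM + 1) was fitted with limma 3.58.1 in R 4.3.3, with genotype alone in the model and an intensity trend, over the 12553 rows whose mean reached 1 FPKM. Fold changes of low genes are understated on this scale. The FDR is Benjamini-Hochberg over all rows tested. Ratios within a mouse were tested by exact permutation over all 20 assignments. Steps were tested on simulated data. Alternatives changed the pseudocount, the filter, the scaling, the variance model and the replicate block, used limma-voom on recovered reads, and left out each mouse.

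The 9 genes and the lists of other enzymes, partners, receptors, ligands, targets and markers were chosen with earlier results of these data known. Named genes are the 9, Psenen, Poglut1 and, of the other lists, up to 4 called genes per list by absolute log2 fold change. The values of 2 listed genes and 1 planned ratio are not reported here. Any other gene was chosen after its values were seen. Promoter windows are RefSeq's. Figures were drawn with Python 3.11.15 and matplotlib 3.10.9.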

Additional observations from a re-analysis of the deposited data

How the results depend on the processing

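The directions of Adam10 and Adam17 held under every alternative in which each was tested. With the same FPKM total in each mouse, 3 of the 9 genes were called higher, 5 were higher and 0 lower at an FDR under 0.05. Without the 20 most abundant genes in that total these numbers were 3, 4 and 0. Of all genes 34.8% and 27.1% were called higher under these scalings, and 3.55% and 5.23% lower. Upper-quartile scaling called 1 higher and quantile normalization 2, and a filter of mean 5 FPKM, which left Lfng, Mfng, Pofut1 and Adam17 untested, left 1 higher. Log2 fold changes changed sign with the same FPKM total for Lfng (0.0089), Mfng (0.41), Rfng (0.37), Pofut1 (0.67), Psen2 (0.27) and Aph1a (0.26), without the 20 most abundant genes for Mfng (0.29), Rfng (0.14), Pofut1 (0.48), Psen2 (0.040) and Aph1a (0.025), and after upper-quartile scaling for Mfng (0.11) and Pofut1 (0.19). Without replicate 3 of both groups, chosen after seeing the data, Mfng stood at 0.28 and Ncstn at -0.049. With each mouse left out in turn, Mfng ran from -0.18 to 0.15, the difference in the log2 ratio of Lfng to Rfng from -0.71 to 0.018 and that of Adam10 to Adam17 from -0.21 to 0.12. A pseudocount of 1 FPKM on both genes gave 0.12 for Adam10 to Adam17. The cause was not tested beyond what each scaling does by construction.

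Replicates with the same number did not deviate together (correlations of -0.20, -0.19 and -0.31), the deviations of no mouse correlated best with those of the mouse of its own number, and the numbers were not taken to pair the mice. With the replicate block, 2 of the 9 genes were higher and 3 lower at an FDR under 0.05 and 0 were called, as without it, and the ratio of Ncstn to Aph1a had an exact permutation p of 0.25, the smallest the block allows. Over all genes the block called 1565 higher and 1906 lower. The low reads of Mfng and Lfng and 3 mice in a group limit what could be detected.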

Other observations

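The proprotein convertases, which make the first cut of the Notch precursor, had 3 of 4 genes tested, with 2 lower and none higher at an FDR under 0.05, where 36.5% of all genes were lower and 30.9% higher. With the same FPKM total none of the 3 passed that FDR in either direction. Furin was called lower, at 7.24, 7.76 and 8.74 FPKM in OEx mice and 25.6, 26.6 and 16.0 FPKM in Ctrl mice. The highest OEx mouse stayed below the lowest Ctrl mouse, Ctrl replicate 3. The log2 fold change was -1.38 (SE 0.198, limma FDR 9.46e-04), and Furin was not called with the same FPKM total, where it lay 1.21 below the median of all genes. Pcsk5, at 2.56, 2.55 and 0.142 FPKM in OEx mice and 0.411, 0.413 and 0.570 FPKM in Ctrl mice, was called higher without OEx replicate 3 (log2 fold change of 1.28).

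Of the other catalytic ADAM proteases, 4 of 7 were tested, with 2 higher and none lower at an FDR under 0.05. Over all genes tested 30.9% were higher and 36.5% lower at that FDR. With the same FPKM total all 4 were higher at that FDR, and 3 were called higher, against 34.8% of all genes. That scaling shifted genes upward in general, to a median of 0.66 on the log2 scale. Nothing particular to this list is read from these counts. Adam28 was called higher, at 3.48, 3.68 and 3.40 FPKM in OEx mice and 0.923, 0.950 and 0.924 FPKM in Ctrl mice. The mice of each group lay close together, and the log2 fold change was 1.23 (SE 0.0948, limma FDR 8.38e-05), which was not called after quantile normalization. Adam15, chosen after its values were seen, had a log2 fold change of 0.87 (limma FDR 1.32e-04).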
